A study of Mus musculus with 52 samples.

Results

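The genes described here encode 2 neurotrophins, Bdnf (brain-derived neurotrophic factor) and Ntf3 (neurotrophin 3), and 3 neurotrophin receptors, Ntrk2 (TrkB), Ntrk3 (TrkC) and Ngfr (p75NTR). They were chosen as the rows of the deposited count table whose Ensembl identifier maps to these symbols, and all 5 were found among the table's 46071 genes. RNA was sequenced from the nucleus accumbens, hypothalamus and hippocampus of male C57BL/6J mice aged 3 months. Conscious mice carried a jugular catheter and received saline or insulin at a low rate of 4 mU/kg/min or a high rate of 12 mU/kg/min for 3 h, with glucose infused to hold blood glucose. For saline, low and high insulin there were 6, 6 and 6 libraries from the nucleus accumbens, 5, 6 and 5 from the hypothalamus, and 6, 6 and 6 from the hippocampus, 52 in all. All mice, those given saline included, had the same catheter surgery. The labels tie no library to an animal, so p-values measure the spread between libraries, part of which may be technical.

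Neurotrophins are secreted growth factors that are made as precursors, cut by proprotein convertases and released from neurons, BDNF in part in response to neuronal activity. BDNF signals through TrkB and NT-3 mainly through TrkC, receptor tyrosine kinases that act through the RAS-ERK, PI3K-AKT and phospholipase C gamma pathways. p75NTR binds all neurotrophins and, together with sortilin, their precursors, and in the adult forebrain it is best known from basal forebrain cholinergic neurons. In the adult hippocampus BDNF is known for synaptic plasticity, and BDNF and TrkB in the hypothalamus are known for restraining food intake.

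All coordinates are on GRCm38. Bdnf (ENSMUSG00000048482) lies on the plus strand at chr2:109674700-109727007 and has 11 annotated transcripts. Ntf3 (ENSMUSG00000049107) lies on the minus strand at chr6:126101412-126166910, with 3 transcripts. Ntrk2 (ENSMUSG00000055254) is on the plus strand at chr13:58806569-59133970, with 10 transcripts. Ntrk3 (ENSMUSG00000059146) is on the minus strand at chr7:78175959-78738012, with 20 transcripts. Ngfr (ENSMUSG00000000120) is on the minus strand at chr11:95568818-95587735, with 1 transcript. Counts were per gene, so transcripts that start at different Bdnf promoters were summed, as were full-length TrkB and its truncated forms, which astrocytes also make. An antisense gene, Gm45346, overlaps Bdnf on an exon. The library kit kept strand, but the strand setting of the counting was not given in the sources used here, so reads from the 2 genes may not be told apart.

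The promoters of the 3 genes with the widest differences in level between regions are shown, each as the 250 bases before a RefSeq transcription start (RefSeq, GRCm38.p6, gene strand, 5′ to 3′). Capitals mark 2 kinds of motif, searched on both strands. They are the core of the cAMP response element, TGACG or CGTCA, which CREB family factors bind, and the GC box, GGGCGG or CCGCCC, which SP1 family factors bind. The Bdnf sequence is the third of its 7 annotated start windows (chr2:109692186-109692435), the Ntf3 sequence the first of 2 (chr6:126166745-126166994), and the Ngfr sequence its single one (chr11:95587699-95587948).
Bdnf: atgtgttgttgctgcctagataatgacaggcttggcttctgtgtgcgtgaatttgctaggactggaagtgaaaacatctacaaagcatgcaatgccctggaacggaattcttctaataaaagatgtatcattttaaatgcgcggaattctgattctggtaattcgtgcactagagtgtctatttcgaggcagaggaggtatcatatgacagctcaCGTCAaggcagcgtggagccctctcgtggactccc
Ntf3: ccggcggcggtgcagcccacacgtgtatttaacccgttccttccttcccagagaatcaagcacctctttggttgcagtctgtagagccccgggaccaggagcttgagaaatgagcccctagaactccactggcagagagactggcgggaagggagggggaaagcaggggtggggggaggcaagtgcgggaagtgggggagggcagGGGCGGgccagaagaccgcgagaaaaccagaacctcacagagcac
Ngfr: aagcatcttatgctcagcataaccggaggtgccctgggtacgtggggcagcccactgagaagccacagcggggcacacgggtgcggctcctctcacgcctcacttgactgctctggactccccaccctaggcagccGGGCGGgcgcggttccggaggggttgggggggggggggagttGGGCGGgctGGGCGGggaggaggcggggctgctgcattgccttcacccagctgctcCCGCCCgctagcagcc

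The Bdnf window held 1 core of the cAMP response element and was chosen for it, since the other 6 Bdnf windows held none, and 2 of those 6 held a GC box. The Ntf3 window held 1 GC box and the Ngfr window 4 GC boxes. Over 32851 promoter windows of the same length, 17.8% held that core and 32.7% held a GC box, so neither motif is rare. RefSeq windows were matched for 4 of the 5 genes, and Ntrk3 is named only. A match is a run of letters and does not show that a factor binds there.

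Library totals ranged between 2453412 and 8279612 counts, with a median of 4654642. A defining marker of each region followed the region labels under saline. Drd1, the D1 dopamine receptor of striatal neurons, averaged 233 ± 55.9 CPM (counts scaled by library size) in the nucleus accumbens, 8.00 ± 2.00 in the hypothalamus and 7.93 ± 1.03 in the hippocampus (SD, n = 6, 5 and 6). Pmch, the melanin-concentrating hormone precursor of the lateral hypothalamus, averaged 0.350 ± 0.200, 527 ± 215 and 0.0615 ± 0.151 CPM in the same order. Neurod6, a pyramidal neuron factor, averaged 4.12 ± 6.69, 0.509 ± 0.311 and 153 ± 32.0 CPM. Some libraries stood apart within their region. In the nucleus accumbens, 5 of 18 libraries had a summed level of pyramidal neuron markers over 2 times the regional median (580 to 1332 CPM, against 214 to 408 in the other 13). In the hypothalamus, 5 of 16, all from insulin-infused mice, had at least 1 of 5 peptide genes (Avp, Hcrt, Oxt, Pmch, Pomc) under 1 CPM. In the hippocampus, 7 of 18 had choroid plexus markers over 2 times the regional median. In 10 of the 52 libraries, gene levels relative to the region's mean leaned toward GC-rich genes (Spearman rho above 0.4), and none of these was among the 11 hypothalamic insulin libraries while 3 were among the 5 hypothalamic saline libraries.

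Ntrk2 was the most abundant of the genes per unit length in every region. Its level under saline, in CPM per kilobase of exon (RPKM), averaged 49.4 in the nucleus accumbens, 59.7 in the hypothalamus and 37.4 in the hippocampus. The order of the others depended on the region. Nucleus accumbens Ngfr came next with 8.00 RPKM, then Ntrk3 with 2.88, Bdnf with 1.57 and Ntf3 with 0.0532. In the hypothalamus Bdnf (3.37 RPKM), Ntrk3 (3.00) and Ngfr (2.31) lay close together and Ntf3 was at 0.0400. In the hippocampus Bdnf was second with 9.27 RPKM, followed by Ntrk3 with 4.42, Ntf3 with 3.17 and Ngfr with 0.293. Ntf3 and Ngfr thus took opposite places. Ntf3 was last in the nucleus accumbens and hypothalamus, and Ngfr was last in the hippocampus, by CPM as well. The rest of the order depends on the length used, which joins the exons of all annotated transcripts. It was 30170 bases for Ntrk3 and 3446 for Ngfr. By CPM, Ntrk3 came second to Ntrk2 in every region under saline, with means of 86.7, 90.6 and 133 in the nucleus accumbens, hypothalamus and hippocampus.

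**Figure D1:**
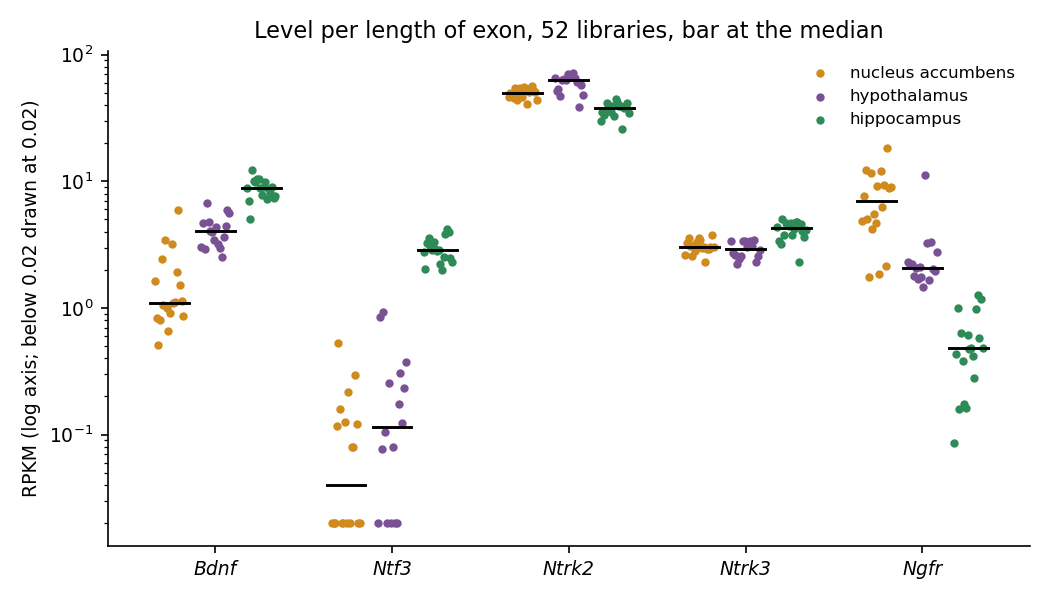
Level per exonic length (RPKM, log axis) of the 5 genes in every library, one column of points for each region, with a bar at the region's median; libraries of all infusions are drawn, and values under 0.02 are set at 0.02. Ntrk2 lies highest in all 3 regions, Ntf3 is near the lower edge outside the hippocampus, and Ngfr is lowest in the hippocampus.

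All 5 genes differed between regions under saline. Bdnf, Ntf3 and Ntrk3 were lower and Ntrk2 and Ngfr higher in both the nucleus accumbens and the hypothalamus than in the hippocampus (edgeR quasi-likelihood test on all 52 libraries, Benjamini-Hochberg adjusted p under 0.05). So many genes differ between these regions that the count of 5 of 5 is not in itself distinctive. The share of all 14985 tested genes called was 29.2% for nucleus accumbens minus hippocampus (14.7% higher and 14.5% lower) and 46% for hypothalamus minus hippocampus (24.4% higher and 21.6% lower). For nucleus accumbens minus hypothalamus it was 32.1% (14.7% higher and 17.3% lower), and 2 of the 5 genes, Bdnf and Ngfr, were called. The saline libraries of the 2 regions did not overlap at all for 16.4%, 24.9% and 14.5% of all tested genes in nucleus accumbens minus hippocampus, hypothalamus minus hippocampus and nucleus accumbens minus hypothalamus. Such a share is not given for libraries of all infusions or for infusion groups within a region, so separations of those kinds below are description only. In these bulk samples, fewer cells of a type and less RNA per cell cannot be told apart. The comparisons share their libraries, so their results are not independent.

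**Figure D2:**
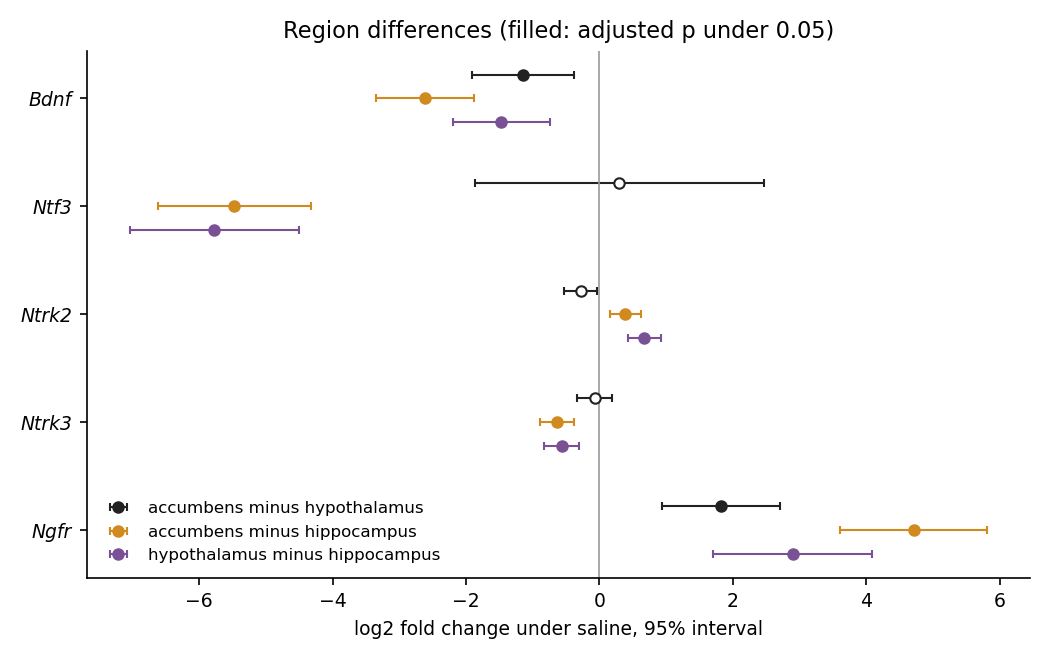
Log2 differences between regions under saline for the 5 genes (x axis, log2 scale, bars are 95% confidence intervals), for nucleus accumbens minus hypothalamus, nucleus accumbens minus hippocampus and hypothalamus minus hippocampus. Filled points have an adjusted p under 0.05; Ntf3 lies furthest below 0 and Ngfr furthest above 0 in both comparisons with the hippocampus.

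Bdnf, the main activity-dependent neurotrophin of the adult forebrain, was lowest in the nucleus accumbens and highest in the hippocampus. Under saline it ranged between 5.00 and 21.5 CPM in the nucleus accumbens, with a median of 8.15. The 5 hypothalamic saline libraries had 19.0, 18.2, 21.4, 18.6 and 27.6 CPM. In the hippocampus under saline the values ranged between 45.3 and 75.9 CPM, with a median of 55.8. Under saline all hippocampal libraries lay above all others, and 1 nucleus accumbens library reached into the hypothalamic range. Over all infusions, 17 of 18 hippocampal libraries lay above all others. The level was 6.13-fold lower in the nucleus accumbens than in the hippocampus (log2 difference -2.62, SE 0.37, edgeR adjusted p = 9.78e-08) and 2.77-fold lower in the hypothalamus than in the hippocampus (-1.47, SE 0.36, edgeR adjusted p = 0.000807). It was 2.22-fold lower in the nucleus accumbens than in the hypothalamus (-1.15, SE 0.38, edgeR adjusted p = 0.0183). This last call rests on few libraries. Without the GC-leaning libraries, a setting that leaves out 3 of the 5 hypothalamic saline libraries, the difference was -1.13 with an edgeR adjusted p of 0.197. The edgeR adjusted p was 0.0517 without nucleus accumbens saline replicate 2 and 0.0581 without hypothalamus saline replicate 5.

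Ntf3, the TrkC ligand, was counted mainly in the hippocampus. In the nucleus accumbens it had 14 counts over 18 libraries, 9 of them at 0, and in the hypothalamus 29 counts over 16 libraries, 5 of them at 0. The hippocampus had 405 counts over 18 libraries, and its saline libraries ranged between 4.31 and 6.81 CPM, with a median of 5.33. Over all 3 infusions, each of the 18 hippocampal libraries lay above every library of the other regions. A count of 0 allows up to 0.514 to 0.873 CPM in the nucleus accumbens libraries at 0 and up to 0.452 to 1.17 CPM in the hypothalamic ones (3 counts per library, counting error only). The fitted differences from the hippocampus under saline were past the threshold in both regions (edgeR adjusted p = 4.06e-11 for the nucleus accumbens and 8.88e-11 for the hypothalamus). With 3 counts in the nucleus accumbens and 2 in the hypothalamus under saline, the size is better given by pooled counts over all infusions. The hippocampal share of all counts was 32.1 times that of the nucleus accumbens (95% interval 18.9 to 59.2) and 15.0 times that of the hypothalamus (10.3 to 22.7), with intervals for counting error only. Under saline alone it was 56.0 times that of the nucleus accumbens (18.8 to 275) and 74.1 times that of the hypothalamus (20.1 to 618), where most counts came from insulin libraries. Between the nucleus accumbens and hypothalamus a difference was not detectable at this depth (log2 difference 0.30, 95% interval -1.86 to 2.46, edgeR adjusted p = 0.851).

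Ntrk2, the BDNF receptor TrkB, was lowest in the hippocampus, where Bdnf was highest, and its mean was highest in the hypothalamus. Nucleus accumbens saline libraries ranged between 871 and 1072 CPM, with a median of 942. The hypothalamic saline libraries had 1259, 1030, 1353, 1374 and 745 CPM, and the hippocampal ones ranged between 578 and 867, with a median of 725. The nucleus accumbens libraries all lay above the hippocampal ones, while hypothalamus saline replicate 5 fell within the hippocampal range. Ntrk2 was 1.31-fold higher in the nucleus accumbens than in the hippocampus (log2 difference 0.39, SE 0.12, edgeR adjusted p = 0.00893), and the hypothalamus minus hippocampus difference was 0.67 (SE 0.12, edgeR adjusted p = 1.06e-05). The nucleus accumbens minus hypothalamus difference did not pass, at -0.28 (95% interval -0.53 to -0.04, edgeR adjusted p = 0.0702). It was -0.40 (adjusted p = 0.00929) without hypothalamus saline replicate 5 and -0.51 (adjusted p = 0.00595) without the GC-leaning libraries, both past the edgeR threshold. Astrocyte markers, summed, averaged 5216 ± 346, 4305 ± 282 and 6049 ± 943 CPM under saline in the nucleus accumbens, hypothalamus and hippocampus, an order that does not follow Ntrk2, and their part in its level was not tested.

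Ntrk3, the NT-3 receptor TrkC, was highest in the hippocampus, by less than 2-fold. It ranged between 69.5 and 103 CPM in the nucleus accumbens under saline, with a median of 87.6. Hypothalamic saline libraries had 101, 79.2, 102, 101 and 69.4 CPM, and hippocampal ones ranged between 114 and 153, with a median of 133. Every hippocampal saline library lay above all others. The level was 1.55-fold lower in the nucleus accumbens than in the hippocampus (log2 difference -0.63, SE 0.13, edgeR adjusted p = 5.69e-05), and the hypothalamus minus hippocampus difference was -0.56 (SE 0.13, edgeR adjusted p = 0.000373). Nucleus accumbens and hypothalamus overlapped and did not differ past the threshold (-0.07, edgeR adjusted p = 0.709).

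Ngfr, the p75 neurotrophin receptor, showed the widest gradient of the receptors. It ranged between 14.6 and 63.6 CPM in the nucleus accumbens under saline, with a median of 19.5. In the hypothalamus the 5 saline libraries had 7.94, 7.69, 6.02, 11.3 and 6.94 CPM. The hippocampal saline libraries ranged between 0.297 and 2.00 CPM, with a median of 0.781, from 25 counts in all. The 3 regions did not overlap under saline, and over all infusions every nucleus accumbens and every hypothalamic library lay above every hippocampal one. Ngfr was 26.2-fold higher in the nucleus accumbens than in the hippocampus (log2 difference 4.71, SE 0.55, edgeR adjusted p = 8.79e-10) and 7.43-fold higher in the hypothalamus than in the hippocampus (2.89, SE 0.60, edgeR adjusted p = 7.22e-05). It was 3.52-fold higher in the nucleus accumbens than in the hypothalamus (1.82, SE 0.44, edgeR adjusted p = 0.00145), although this last call was lost without the GC-leaning libraries (1.86, edgeR adjusted p = 0.101). That setting leaves out 3 of the 5 hypothalamic saline libraries, and the size of the difference hardly moved. The difference from the hippocampus rests on few hippocampal counts, and over all infusions the means were 25.9 ± 15.0 CPM in the nucleus accumbens, 9.45 ± 7.99 in the hypothalamus and 1.87 ± 1.21 in the hippocampus (SD, n = 18, 16 and 18).

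**Figure D3:**
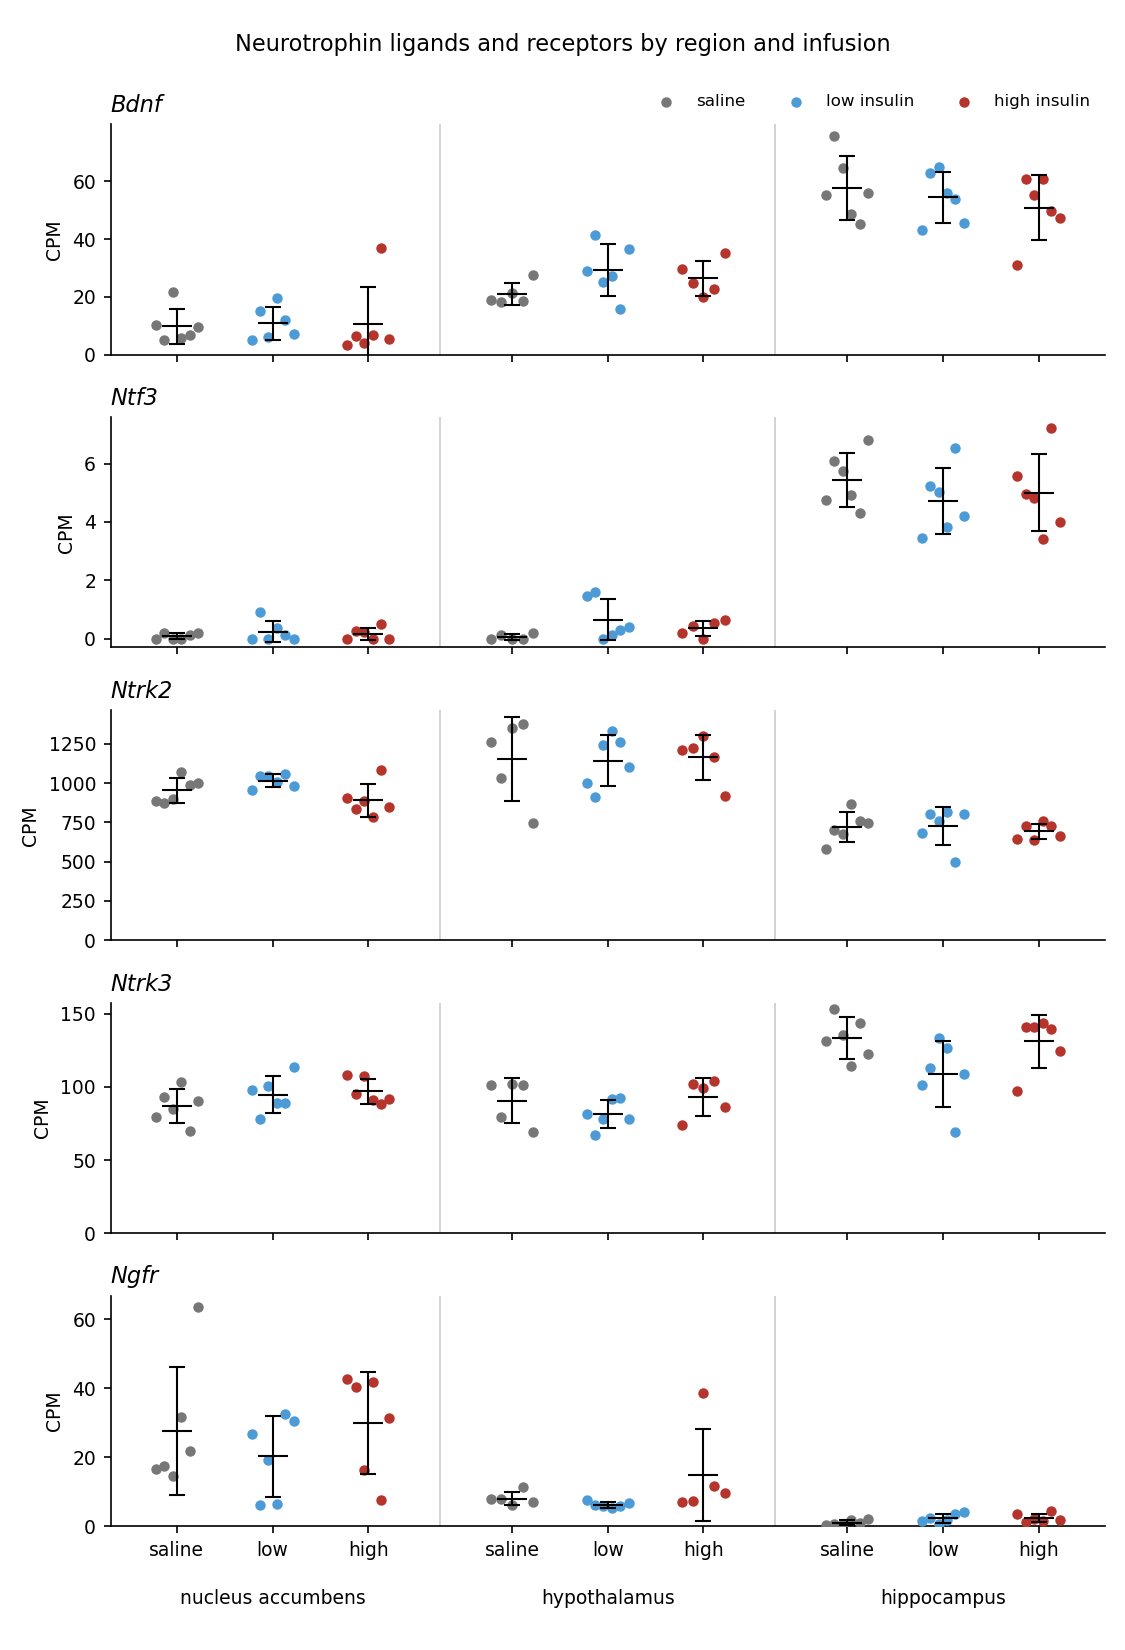
CPM of the 5 genes in each of the 52 libraries (points, linear axes that start at 0, or just below 0 for Ntf3), by region and infusion, with the mean and SD of each group. Except for Ntf3, the lower part of an SD bar that would pass 0 is cut there. Groups of one region overlap across infusions, whereas Ntf3 and Ngfr separate the hippocampus from both other regions.

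Within the nucleus accumbens, the spread of Bdnf and Ngfr ran with the marker content of the libraries. In the 5 pyramidal-rich libraries Bdnf ranged between 10.1 and 36.8 CPM with a median of 19.8, against 3.19 to 11.9 with a median of 6.20 in the other 13. Ngfr was between 6.07 and 16.6 CPM in those 5 libraries, with a median of 7.43, against 16.3 to 63.6 and a median of 31.2 in the others. The libraries with most pyramidal markers were thus high in Bdnf and low in Ngfr, with little overlap. Summed markers of cholinergic neurons were 79.5 to 149 CPM in the 5 libraries and 179 to 248.9 CPM in the others. Whether they came from basal forebrain cholinergic neurons, those best known for p75NTR, or from others was not tested. Under saline the median cholinergic sum was 188.5 CPM in the nucleus accumbens, 40.9 in the hypothalamus and 1.42 in the hippocampus, the same order as Ngfr. In the hypothalamus under saline, Chat, Slc5a7, Slc18a3 and Lhx8 averaged 1.49, 3.96, 0.950 and 0.910 CPM of a mean sum of 45.2. Most of the hypothalamic sum thus came from the list's other genes. The same genes averaged 25.9, 64.8, 8.28 and 38.7 CPM in the nucleus accumbens, of a mean sum of 175. The median pyramidal sum was 276, 267.5 and 2616 CPM, so that the hippocampus was highest as for Bdnf. The part of either marker list in these levels was not tested. Without the pyramidal-rich libraries the nucleus accumbens minus hypothalamus difference was larger for both genes, at -1.66 for Bdnf (edgeR adjusted p = 3.22e-06) and 2.09 for Ngfr (edgeR adjusted p = 7.39e-05).

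**Figure D4:**
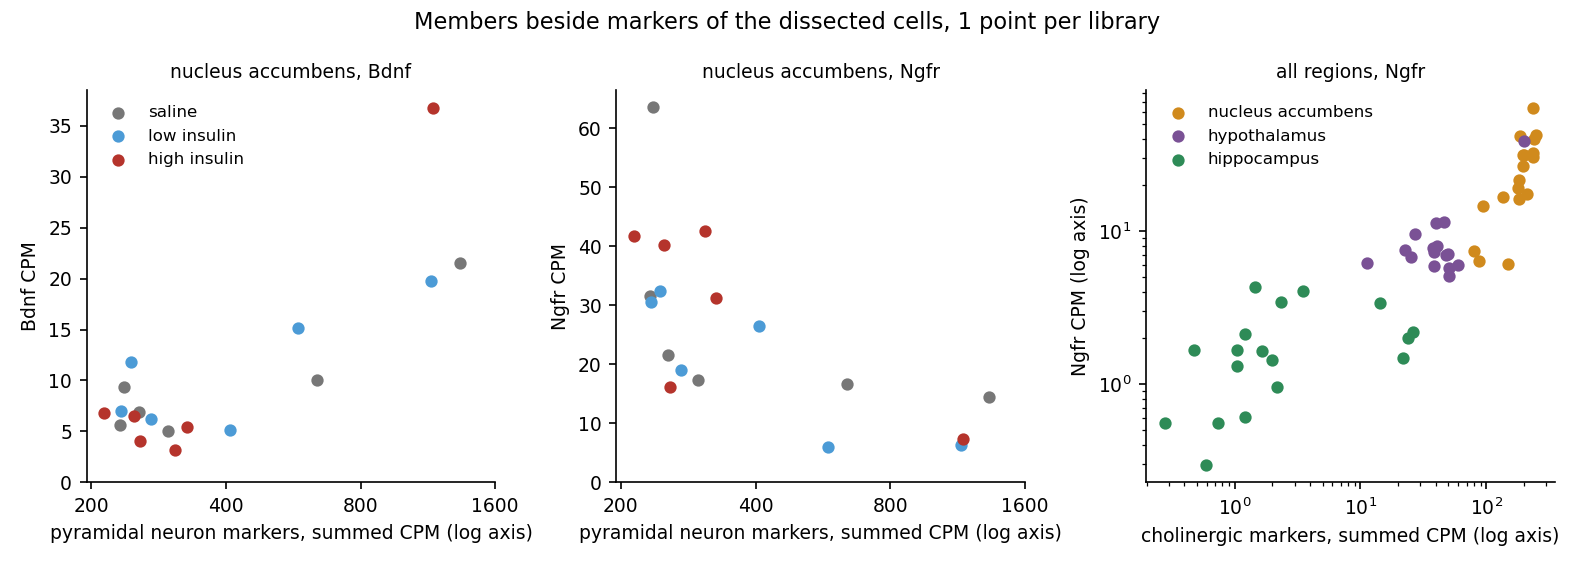
Levels of Bdnf and Ngfr in nucleus accumbens libraries against the summed CPM of pyramidal neuron markers, and of Ngfr in all libraries against the summed CPM of cholinergic neuron markers, each point a library. The 5 nucleus accumbens libraries with pyramidal sums of 580 CPM or more hold the highest Bdnf value and the lowest Ngfr values of the region.

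The infusion comparisons ask whether insulin in the blood alters these transcripts in the brain within 3 h. None of the 5 genes passed the threshold in any of the 9 contrasts between infusions. In each region 4 of the 5 passed the filter on low counts, Ntf3 failing it in the nucleus accumbens and hypothalamus and Ngfr in the hippocampus. By edgeR 0 of 4 were called in every contrast, and DESeq2 and limma-voom also called 0. At an unadjusted p under 0.05 there was 1 of 4 in each hypothalamic contrast and 0 of 4 in each contrast of the other regions. In the hypothalamus 29.9% of all tested genes had such a p for low insulin minus saline, 24.1% for high insulin minus saline and 1.41% for high minus low insulin, so 1 of 4 is near the background in the first and second of these. Over all tested genes, the share called was 5.38% for hypothalamus low insulin minus saline (3.59% higher, 1.78% lower), 0.184% for high insulin minus saline (0.177% higher, 0.00707% lower) and 0% for high minus low insulin. It was 0% in each contrast of the hippocampus and nucleus accumbens by edgeR, where 196 to 817 genes had an unadjusted p under 0.05. The hypothalamic calls themselves rest on few libraries, since 3 genes in place of 760 were called for low insulin minus saline without the GC-leaning libraries. That setting leaves out 3 of the 5 hypothalamic saline libraries.

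**Figure D5:**
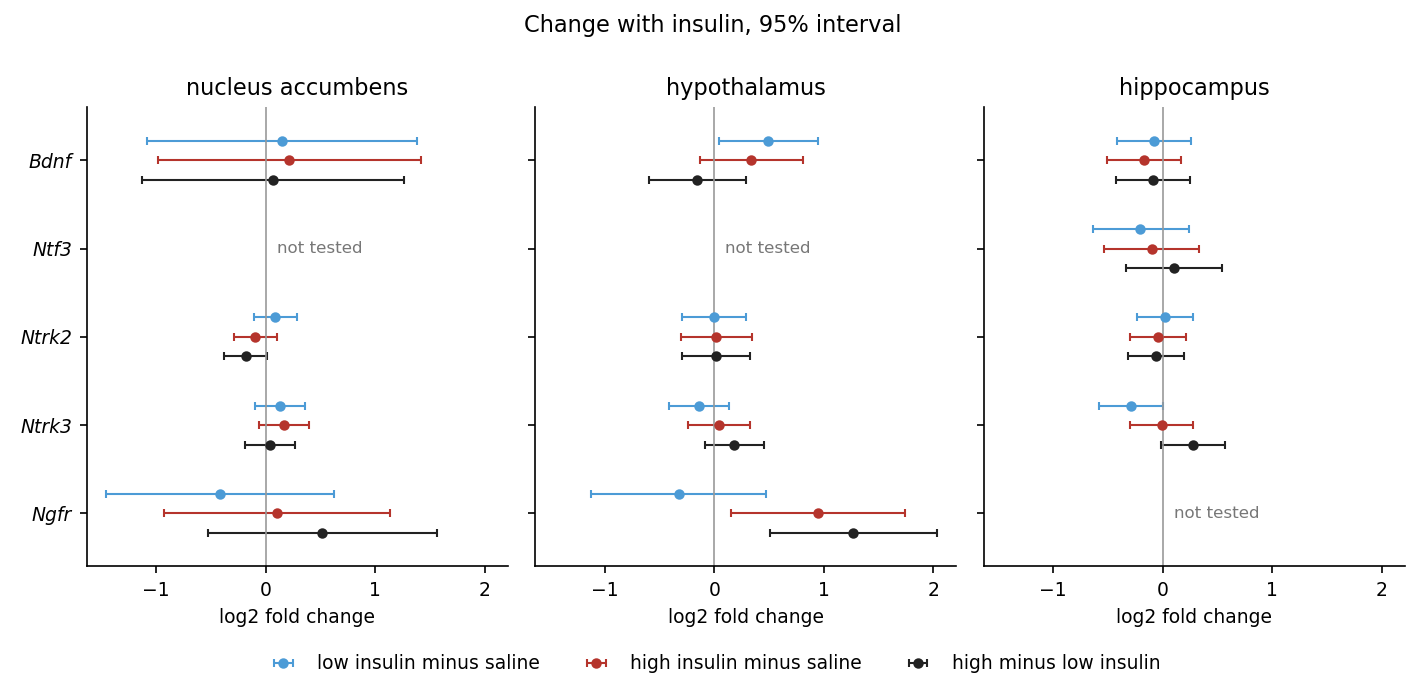
Log2 differences of the 5 genes between infusions in each region (x axis, log2 scale, bars are 95% confidence intervals), for low insulin minus saline, high insulin minus saline and high minus low insulin. Genes under the filter on low counts are written as not tested; the intervals that leave out 0 are Bdnf for low insulin minus saline, and Ngfr for high insulin minus saline and high minus low insulin, all in the hypothalamus, and none of these passed the adjusted threshold.

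Hypothalamic Bdnf, the ligand known for restraining food intake, did not differ past the threshold. Under saline the 5 libraries had 19.0, 18.2, 21.4, 18.6 and 27.6 CPM, under low insulin the range was 15.7 to 41.5 with a median of 28.1, and under high insulin the libraries had 29.7, 24.8, 19.95, 22.6 and 35.1 CPM. The groups overlapped. The low insulin minus saline difference was 0.49 (SE 0.22, 95% interval 0.04 to 0.94, unadjusted p = 0.0343, edgeR adjusted p = 0.139), and high insulin minus saline was 0.34 (edgeR adjusted p = 0.336). The 5 hypothalamic libraries lacking a peptide gene, 3 of the low rate and 2 of the high rate, had 19.95 to 41.5 CPM of Bdnf with a median of 35.1, against 15.7 to 29.7 with a median of 22.6 in the other 11. Without them the low insulin minus saline difference was 0.10 (edgeR adjusted p = 0.767). GC lean also differed between these groups, with 3 of 5 saline libraries GC-leaning and 0 of the low-rate and high-rate ones. The part of either feature in the Bdnf level was not tested.

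Hypothalamic Ngfr was high in a single library. The saline libraries had 7.94, 7.69, 6.02, 11.3 and 6.94 CPM, the low-rate libraries ranged between 5.08 and 7.57 with a median of 6.04, and the high-rate libraries had 7.06, 7.29, 38.6, 11.5 and 9.56 CPM. High-rate replicate 3 stood apart, and the other libraries of that group overlapped those of both other groups. The high minus low difference was 1.27 (unadjusted p = 0.00249, edgeR adjusted p = 1), and high insulin minus saline was 0.94 (unadjusted p = 0.0221, edgeR adjusted p = 0.164). Without that library they were 0.52 (edgeR adjusted p = 1) and 0.20 (edgeR adjusted p = 0.616). The same library had a summed cholinergic marker level of 200 CPM, against 11.2 to 59.3 in the other hypothalamic libraries, with 25.6 CPM of Chat, the acetylcholine synthesizing enzyme. It is one of those lacking a peptide gene, and its summed level of striatal projection neuron markers was the highest of the region at 669.7 CPM, against 292 to 484 CPM in the others. The part of these markers' cells in the Ngfr value was not tested.

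Ntf3 could not be tested in the hypothalamus with the filter in place. The saline libraries had 0, 0.133, 0, 0 and 0.210 CPM (2 counts in all), the 6 low-rate libraries had 18 counts and reached 1.60 CPM, and the 5 high-rate libraries had 9 counts and reached 0.637 CPM. Only 2 low-rate libraries, replicates 1 and 2, were above 1 CPM. With no filter on low counts the low insulin minus saline difference was 2.66 (unadjusted p = 0.0078, edgeR adjusted p = 0.120), and in the fit of all 52 libraries it was 2.62 (unadjusted p = 0.00278, edgeR adjusted p = 0.0524). Fitted differences from so few saline counts depend on the prior count. Both of those libraries are among those lacking a peptide gene. In the hippocampus, where it was measured well, Ntf3 averaged 5.44 ± 0.94 CPM under saline, 4.71 ± 1.12 under low insulin and 5.00 ± 1.33 under high insulin (SD, n = 6 each), and in the nucleus accumbens 3, 5 and 6 counts were seen under saline, low and high insulin.

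Both Trk receptors varied little with infusion. Nucleus accumbens Ntrk2 averaged 953 ± 79.1 CPM under saline, 1014 ± 41.2 under low insulin and 890 ± 105 under high insulin (SD, n = 6 each). There 5 of 6 high-rate libraries lay below all low-rate ones, yet the high minus low difference of -0.18 did not pass (unadjusted p = 0.0632, edgeR adjusted p = 0.999). In the hypothalamus its averages were 1152 ± 266 CPM under saline (n = 5), 1143 ± 164 under low insulin (n = 6) and 1163 ± 145 under high insulin (n = 5), and in the hippocampus 722 ± 95.8, 727 ± 123 and 692 ± 49.5 (n = 6 each). Hippocampal Ntrk3 averaged 133 ± 14.2 CPM under saline, 109 ± 22.6 under low insulin and 131 ± 18.0 under high insulin (SD, n = 6 each). Of the low-rate libraries 4 of 6 lay below all saline ones, and the low insulin minus saline difference was -0.29 (unadjusted p = 0.0528, edgeR adjusted p = 0.830). The 7 choroid-rich hippocampal libraries, 4 of them of the low rate, had Ntrk3 between 69.4 and 141 CPM, against 97.2 to 153 in the other 11, and the part of choroid plexus in that difference was not tested. Nucleus accumbens Ntrk3 averaged 86.7 ± 11.6, 94.8 ± 12.5 and 96.9 ± 8.62 CPM (n = 6 each), and in the hypothalamus 90.6 ± 15.3 (n = 5), 81.5 ± 9.53 (n = 6) and 93.0 ± 12.7 (n = 5), each under saline, low and high insulin in that order.

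Hippocampal Ngfr sat near the limit of detection, with 25 counts under saline, 66 under low insulin and 68 under high insulin over 6 libraries each. Its values ranged between 0.297 and 2.00 CPM under saline, 0.558 and 4.03 under low insulin, and 1.30 and 4.33 under high insulin, and the groups overlapped. With no filter on low counts the insulin minus saline differences were 1.17 for the low rate (unadjusted p = 0.0143, edgeR adjusted p = 0.773) and 1.26 for the high rate (unadjusted p = 0.00872, edgeR adjusted p = 0.914). Choroid-rich libraries had 1.48 to 4.33 CPM of Ngfr, against 0.297 to 3.42 in the others. Their cholinergic marker sums were 1.21 to 26.2 CPM, against 0.279 to 2.34, and the part of either in the Ngfr level was not tested. Nucleus accumbens Bdnf averaged 9.76 ± 6.11, 10.9 ± 5.78 and 10.46 ± 13.0 CPM and Ngfr 27.6 ± 18.7, 20.2 ± 11.7 and 29.9 ± 14.8 CPM under saline, low and high insulin (SD, n = 6 each), and spreads of this size leave only large changes detectable. Hippocampal Bdnf averaged 57.7 ± 11.2, 54.5 ± 8.92 and 50.9 ± 11.2 CPM in the same order (SD, n = 6 each).

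Whether an insulin effect differed between regions was tested in 6 interaction terms, each setting the insulin minus saline difference of one region against that of another. Of the 5 genes, 0 passed in any term, and over all 14985 genes 0% were called by edgeR, with 357 to 3634 genes at an unadjusted p under 0.05. DESeq2 and limma-voom also called 0 of the 5 genes. The closest was Ntf3 at the low rate in the hypothalamus against the hippocampus, with an interaction of 2.82 (edgeR adjusted p = 0.116) that rests on the few hypothalamic counts given above.

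Much of the wider ligand and receptor family also differed between regions, as did many genes of the whole table. Of 12 listed ligands, receptors and coreceptors besides these 5 genes, 11 were tested. In the nucleus accumbens relative to the hippocampus 2 were higher and 5 lower, in the hypothalamus relative to the hippocampus 3 were higher and 5 lower, and in the nucleus accumbens relative to the hypothalamus 4 were higher and 1 lower. These were 63.6%, 72.7% and 45.5% of the 11, against 29.2%, 46% and 32.1% of all tested genes. Whether so short a list exceeds those shares was not tested. Sort1, which encodes sortilin, the coreceptor of p75NTR for precursor neurotrophins, averaged 561 ± 133 CPM in the nucleus accumbens, 260 ± 73.5 in the hypothalamus and 1414 ± 224 in the hippocampus under saline (SD, n = 6, 5 and 6, edgeR adjusted p = 7.85e-07 for nucleus accumbens minus hippocampus). Rtn4r, the Nogo receptor that can act with p75NTR, averaged 5.42 ± 5.47, 4.38 ± 2.71 and 43.2 ± 22.6 CPM in the same regions (edgeR adjusted p = 2.01e-06 for the same comparison). Ntf5, the other TrkB ligand, had 1, 2 and 19 counts over all libraries of the nucleus accumbens, hypothalamus and hippocampus.

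Genes downstream of the receptors differed in both directions, evenly in some comparisons and mostly in a single direction in others. Of 43 tested TRK adaptors and effectors, 10 were higher and 9 lower in the nucleus accumbens than in the hippocampus, 9 were higher and 15 lower in the hypothalamus than in the hippocampus, and 15 were higher and 3 lower in the nucleus accumbens than in the hypothalamus. The shares called were 44.2%, 55.8% and 41.9%, against 29.2%, 46% and 32.1% of all tested genes. Camk2a, a calcium/calmodulin-dependent kinase of forebrain excitatory neurons, averaged 1113 ± 413, 469 ± 56.9 and 5261 ± 494 CPM in the nucleus accumbens, hypothalamus and hippocampus under saline (SD, n = 6, 5 and 6, as for the genes that follow). Genes known to be induced by BDNF in neurons were mostly lower in the hypothalamus, where 5 were higher and 14 lower than in the hippocampus of 25 tested, with a median log2 difference of -0.83 against 0.06 over all genes. In the nucleus accumbens relative to the hypothalamus 13 were higher and 4 lower, with a median of 0.74 against -0.05 over all genes. The share of BDNF-induced genes called was 76% and 68% in these comparisons, against 46% and 32.1% of all tested genes. Egr3, an early growth response factor, averaged 9.39 ± 2.83, 0.835 ± 0.650 and 16.9 ± 3.78 CPM and Nr4a3, an orphan nuclear receptor, 22.3 ± 6.01, 6.49 ± 1.03 and 98.3 ± 12.7 CPM in the nucleus accumbens, hypothalamus and hippocampus. Homer1, a postsynaptic scaffold gene, was higher in the nucleus accumbens than in the hypothalamus, at 131 ± 40.3 CPM in the nucleus accumbens against 27.1 ± 6.74 CPM in the hypothalamus. Of 13 tested genes that process or secrete neurotrophin precursors, 3 were higher and 3 lower in the nucleus accumbens than in the hippocampus, 5 were higher and 2 lower in the hypothalamus than in the hippocampus, and 0 were higher and 3 lower in the nucleus accumbens than in the hypothalamus. Among them Pcsk1, prohormone convertase 1, averaged 25.0 ± 3.54, 62.1 ± 17.0 and 8.81 ± 2.94 CPM in the nucleus accumbens, hypothalamus and hippocampus. The share of these 13 processing genes called was 46.2%, 53.8% and 23.1% in the comparisons above, against 29.2%, 46% and 32.1% of all tested genes.

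Of the remaining lists, p75 receptor effectors had 1 higher and 2 lower of 19 in the nucleus accumbens relative to the hippocampus, 6 higher and 6 lower in the hypothalamus relative to the hippocampus, and 2 higher and 4 lower in the nucleus accumbens relative to the hypothalamus. Regulators of Bdnf transcription had 2 higher and 4 lower of 20, 1 higher and 7 lower, and 6 higher and 2 lower in the same comparisons. Among them Mef2c, an activity-regulated transcription factor, averaged 208 ± 113, 29.8 ± 8.34 and 163 ± 38.5 CPM in the nucleus accumbens, hypothalamus and hippocampus. Other trophic factors and receptors had 6 higher and 1 lower of 19, 6 higher and 1 lower, and 3 higher and 6 lower. The shares called were 15.8%, 63.2% and 31.6% of p75 effectors and 30%, 40% and 40% of Bdnf regulators. Those of other trophic genes were 36.8%, 36.8% and 47.4%. Over all tested genes they were 29.2%, 46% and 32.1% in the same order, so several list shares lay near or below the background. The nucleus accumbens minus hypothalamus counts depend on the GC-leaning libraries. Without these, 3 other ligands and receptors, 1 processing gene, 6 TRK effectors, 8 BDNF-induced genes, 0 p75 effectors, 2 Bdnf regulators and 4 other trophic genes were called by edgeR in that comparison, in either direction. For hypothalamus minus hippocampus, 5 p75 effectors in place of 12 were called without the GC-leaning libraries. Both comparisons then lack 3 of the 5 hypothalamic saline libraries.

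With insulin, the 7 lists held few calls, all of them in the hypothalamus at the low rate, where 5.38% of all tested genes were called. By edgeR, 0 of 9 other ligands and receptors and 0 of 13 processing genes were called there, with 3 and 2 at an unadjusted p under 0.05, where 29.9% of all genes had such a p. DESeq2 called 1 and 2 of them and limma-voom 0 of either. Vgf, a neuropeptide precursor that BDNF induces, averaged 235 ± 30.8 CPM under low insulin (SD, n = 6) and 372 ± 108 under saline (SD, n = 5) (log2 difference -0.65, edgeR adjusted p = 0.0328), the single call among 21 BDNF-induced genes. Sh2b1, an adaptor of the insulin, leptin and TRK receptors, was the single call among 43 TRK adaptors and effectors (-0.59, edgeR adjusted p = 0.0391). Of 20 regulators of Bdnf transcription 3 were higher, among them Tet1, a DNA demethylation enzyme, by 0.89 and Ppargc1a, a transcriptional coactivator, by 0.67. Erbb4, the neuregulin receptor, Igf1 and Lifr were higher by 1.11, 0.77 and 0.63 among 18 other trophic factors and receptors, and Mapk8 was higher by 0.57 and Maged1 lower by 0.56 among 19 p75 effectors. Not one of these calls was left without the GC-leaning libraries, where their edgeR adjusted p was 0.761 to 0.910. That setting leaves out 3 of the 5 hypothalamic saline libraries. Nor was any left without the libraries lacking a peptide gene, where the edgeR adjusted p was 0.103 to 0.146. Libraries were also grouped by gaps in the numbers of their identifiers, into tag ranges and the narrower tag runs. The labels do not say that these groups are batches. All of the calls were lost as well with tag range as a term (edgeR adjusted p = 0.0779 to 0.172) and with tag run as a block (0.119 to 0.199). In the other infusion contrasts edgeR called 0 genes of each list, with 0 to 13 genes of a list at an unadjusted p under 0.05. The 13 were TRK adaptors and effectors, of 43, for hypothalamus high insulin minus saline, where 24.1% of all genes had such a p. For hypothalamus high insulin minus saline DESeq2 called 0 to 2 genes of a list and limma-voom 0 to 1, and both called 0 in the other contrasts.

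Likeness between genes was measured as Pearson's r of log2 CPM after each gene was centred on the mean of its group, over the 52 libraries and 11311 other genes with at least 5 CPM. It is a description, and libraries share depth, GC lean and tissue makeup. The genes most like Bdnf were Ppm1e, a protein phosphatase (r = 0.805), Nrn1, a neurite growth factor known to be induced by activity and BDNF (0.804), and Bhlhe22, a transcription factor of cortical projection neurons (0.800). Ngfr was most like Acly (0.813), the ATP citrate lyase, Fbln5 (0.774) and Gpld1 (0.736). Ntrk2 was most like Xpot (0.854), Ksr2 (0.848) and Ern1 (0.845), and Ntrk3 most like Bcr (0.748), Glg1 (0.747) and Slitrk5 (0.728). For Ntf3 the highest values were 0.603 or less, with Igbp1, Slc6a3 and E2f1, in counts too sparse to read. Among the 5 genes themselves, Ntrk2 and Ntrk3 had an r of 0.532 and Bdnf and Ngfr an r of -0.527. By region, the r of Ntrk2 and Ntrk3 was -0.019 in the nucleus accumbens, 0.767 in the hypothalamus and 0.569 in the hippocampus. That of Bdnf and Ngfr was -0.621, -0.289 and -0.498 in the same order (18, 16 and 18 libraries).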

How the data were processed

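The deposited table holds raw read counts per Ensembl gene for 52 libraries, which the authors made with STAR and featureCounts on GRCm38.p4, per the submitters' processing notes. Tool versions, the strand setting and the annotation release were not given in the sources used here. Libraries came from a directional kit, with 48 multiplexed per run, per the labels' protocols. Of 46071 genes, 45229 matched GENCODE M21 for symbols and lengths, and the other 842 held 0.084% of the counts. Groups came from the labels.

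Counts were tested with edgeR 4.0.16 in R 4.3.3 (robust quasi-likelihood test, TMM normalization, genes kept by filterByExpr), with Benjamini-Hochberg adjustment over all genes tested and a threshold of 0.05. Infusions were compared in 1 fit per region, and regions and interactions in 1 fit of all 52 libraries. CPM used TMM library sizes, RPKM divided CPM by exonic length, and the log scale for likeness used a prior count of 2. Scripts were tested on simulated data. No library pair of a group agreed within sampling noise over 125 pairs (chi-square per gene 3.46 or more). DESeq2 1.42.0 and limma-voom (limma 3.58.1), other size factors, no filter, terms for tag range and tag run, sets of doubted libraries left out and each library left out were tried as alternatives. Tags are the numbers in the library identifiers, and runs were set apart by gaps of over 10 between them.

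The genes, the pathway and marker lists and the tests were chosen with earlier results of these data known. From each list with calls in a comparison, up to 4 called genes with the smallest adjusted p could be named, and the 3 genes most like each of the 5 genes were named. Values of some listed genes are not reported here. A planned correlation with marker sums was not run, because the libraries fall into separate clusters of marker content, and ranges are given instead. Confidence intervals are 95%, and the floor for a count of 0 is 3 counts.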

Additional observations from a re-analysis of the deposited data

Results flagged for a closer look

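In 45 groups checked, 4 libraries lay far from the others of their group by Dixon's test at the 95% level, which chance alone gives in about 1 of 20 groups. For Bdnf, nucleus accumbens saline replicate 3 had 21.5 CPM, against 5.00 to 10.1 CPM in the other 5, and nucleus accumbens high insulin replicate 5 had 36.8 CPM, against 3.19 to 6.79. Both are among the 5 pyramidal-rich nucleus accumbens libraries. For Ngfr, nucleus accumbens saline replicate 6 had 63.6 CPM, against 14.6 to 31.7, and hypothalamus high insulin replicate 3 had 38.6 CPM, against 7.06 to 11.5 in the other 4. The last of these had the highest cholinergic marker sum of the hypothalamic libraries.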

How the results depend on the processing

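Leaving out 1 library aside, the alternatives gave 180 pairs of a comparison and a setting. The number of the 5 genes called kept within 1.5 times its main value in 179 of these. The exception was nucleus accumbens minus hypothalamus, with 1 gene in place of 2 without the GC-leaning libraries, where Ntrk2 passed and Bdnf and Ngfr did not. Leaving out 1 library at a time gave 1 to 2 genes in that comparison. Most pairs were of infusion or interaction comparisons with a main count of 0, where the measure says only that 0 stayed 0. The loss of a single gene out of 5 would also count as kept. Gene by gene, leaving out 1 library aside, 2 calls were lost and 1 was gained. No value with a call reversed. With the tag run, a group of nearby identifier numbers, as a replicate block, the counts were 5 for nucleus accumbens minus hippocampus, 5 for hypothalamus minus hippocampus, 2 for nucleus accumbens minus hypothalamus and 0 for every infusion contrast. The block changed no count for these genes, and Bdnf and Ngfr in nucleus accumbens minus hypothalamus were at -1.51 (edgeR adjusted p = 0.00324) and 2.07 (edgeR adjusted p = 0.00148). Same-run libraries deviated together with an r over 0.1 in 10 of 18 pairs in the nucleus accumbens, 9 of 12 in the hypothalamus and 12 of 18 in the hippocampus (median r 0.166, 0.217 and 0.31). Libraries of different runs did so in 26 of 90, 21 of 73 and 27 of 90 pairs (median r -0.022, -0.052 and -0.015). Same-run libraries thus shared deviations in part, but not in every pair. These pairs were libraries of 1 region under different infusions, so they cannot show whether libraries of different regions share a mouse. The main fits took libraries as independent, and the block was tried only as an alternative. In the hypothalamus at the low rate, the 760 genes called over the whole table became 16 with the block, 29 with tag range as a term, 24 without the libraries lacking a peptide gene, 22 with only the 2 groups compared and 3 without the GC-leaning libraries, and 1678 by DESeq2. The cause was not tested, and leaving out the GC-leaning libraries removes 3 of the 5 hypothalamic saline libraries. For the same contrast DESeq2 called 8 TRK effectors, 6 p75 effectors, 7 Bdnf regulators and 7 BDNF-induced genes, against 1, 2, 3 and 1 by edgeR. Ntf3 outside the hippocampus and Ngfr in the hippocampus are limited by depth.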
